A study of Mus musculus with 6 samples.

Results

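The collagen family was described in AML-12 cells, a non-tumorigenic mouse hepatocyte line, after silencing of manganese superoxide dismutase (MnSOD). Members were the probe sets with 1 annotated gene symbol of the form Col, digits, a, digit, as in Col12a1. They came to 46 probe sets for 44 genes, of 35557 probe sets and 19938 singly annotated genes in the deposited table. For Col6a5 and Col6a6, which had a pair of probe sets each, the brighter one stood for the gene. The 3 siMnSOD and 3 siScramble samples were each hybridised to 1 Affymetrix Mouse Gene 1.0 ST array. The siMnSOD cells stably carried a retroviral pSUPER.retro.puro vector for a hairpin against MnSOD, designed for mild silencing, and the siScramble cells carried the same vector for a hairpin that recognises no gene. Both populations were wild-type AML-12 cells taken through the same transduction and puromycin selection and grown in serum-containing DMEM. Per the labels the samples were biological replicates from different frozen batches of cells, but whether they trace to separate transductions is not stated, and the spread behind the p-values may therefore be technical.

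Collagens are secreted or membrane proteins of 3 alpha chains wound into a triple helix with glycine at regular intervals. Fibrillar collagens give tissues tensile strength, type IV collagen forms the mesh of basement membranes, fibril-associated collagens decorate fibril surfaces, and the remaining classes form beaded filaments, anchoring fibrils, hexagonal networks or cell-surface molecules. In the liver most fibrillar collagen is made by stellate cells and fibroblasts, and scar formation after injury is largely their deposit, whereas hepatocytes are known to make type XVIII collagen. The comparison addressed whether collagen transcripts differed in hepatocytes with less MnSOD, the enzyme that removes superoxide in the mitochondrial matrix.

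The targeted gene Sod2 read 98.8, 121 and 52.3 intensity units in siMnSOD replicates 1, 2 and 3, against 248, 254 and 293 units in the siScramble replicates. All 3 siMnSOD arrays lay below all 3 siScramble arrays, with a log2 fold change of -1.63 (SE 0.30, adjusted p = 0.037 in limma). Without siMnSOD replicate 1 or 2 or siScramble replicate 1 or 2 the adjusted p was between 0.072 and 0.13. Replicate 3 stood apart in both groups. The median log2 intensity of the 44 collagen genes was 5.35, 5.23 and 5.63 in siMnSOD replicates 1, 2 and 3, and 5.39, 5.43 and 5.52 in siScramble replicates 1, 2 and 3. The median over all genes was likewise highest on replicate 3. It was 5.17, 5.15 and 5.38 in siMnSOD and 5.17, 5.18 and 5.37 in siScramble. Of the hepatocyte markers Alb, Ttr, Ahsg and Cps1 lay below background in both groups, while the keratin genes Krt8 and Krt18, Apob and Trf lay well above it. Apoa1, Fgb and Tat lay only a little above it, with group means of 4.29 to 4.73 on the log2 scale. Of 15 stellate cell and fibroblast markers 7 lay below background in both groups, among them Dcn, Lum, Postn, Pdgfrb and Lrat, and none passed the test. Their summed intensity was 5518 to 6080 units in siMnSOD and 4212 to 4603 units in siScramble arrays, most of it from Vim, a gene that cultured epithelial cells also express (5258, 5366 and 5767 units in siMnSOD replicates 1, 2 and 3, against 4344, 4192 and 3902 units in siScramble). Endothelial and macrophage markers held 1 of 7 and 2 of 6 genes above background and no called gene, with summed intensities of 101 to 130 and 110 to 128 units in siMnSOD, against 101 to 124 and 120 to 142 units in siScramble. Over all genes 65.8% lay above background and 3.75% were called, so lists of these sizes could hold no call without standing apart. The summed intensity of 12 hepatocyte markers was 15617 to 18002 units in siMnSOD and 11025 to 15056 units in siScramble, and that of 4 biliary markers was 3894 to 4180 units in siMnSOD and 1904 to 3292 units in siScramble, so that neither sum overlapped between groups. Most of the hepatocyte sum came from the keratin genes. Krt8 had means of 8460 units in siMnSOD and 5673 in siScramble, and Krt18 had 5747 and 5388 units. Of the hepatocyte list Hnf4a, a liver transcription factor gene, rose, and of the biliary list Sox9, a progenitor and duct factor gene, fell (log2 fold changes 1.09 and -0.86, adjusted p = 0.013 and 0.027). Either call was lost without siMnSOD replicate 1 or 2 or siScramble replicate 2 (adjusted p 0.064 to 0.08 for Hnf4a and 0.074 to 0.15 for Sox9), and that of Sox9 also without siScramble replicate 1 (adjusted p = 0.102). The duct keratin genes Krt7 and Krt19 were not called but had positive log2 fold changes, 1.15 (SE 0.54, adjusted p = 0.38) and 0.70 (SE 0.24, adjusted p = 0.19), with groups that did not overlap and a higher siMnSOD value within each replicate number. Groups that did not overlap, in the higher direction, were seen for 11.1% of all genes. The part of these marker shifts in the values that follow was not tested.

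One collagen gene changed. Col12a1, whose product is a fibril-associated collagen that links fibrils to the surrounding matrix, fell to 54.4% of the siScramble level in siMnSOD cells. The other 43 genes did not pass the test, including both type I chains, type III and the basement membrane chains, and for 33 of them the 95% interval lay within 1.5-fold in either direction. The call of 1 in 44 genes (2.27%) stands beside 3.75% of all 19938 genes called in either direction, 1.58% lower and 2.17% higher. Calls were made with limma on log2 intensity at a Benjamini-Hochberg adjusted p under 0.05 over all tested rows.

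Background was judged from 1027 genes of olfactory receptors, a family of the nasal epithelium. The 95th percentile of their means, 4.28 on the log2 scale or 19.4 intensity units, served as a guide. By this guide 41 of 44 collagen genes (93.2%) lay above background in the mean of at least 1 group, against 65.8% of all genes. Col5a2, Col8a1 and Col19a1 lay below it in both groups. The guide was lenient for this family. All 7 genes of cartilage collagens (Col2a1, Col9a1, Col9a2, Col9a3, Col10a1, Col11a1 and Col11a2) passed it, with means over all arrays between 4.75 and 6.14 on the log2 scale. A stricter guide, the 99th percentile of the olfactory receptors (5.09, or 34 units), left 27 genes. When the brightest cartilage collagen was taken as the guide, 8 genes were left: Col4a1, Col4a2, Col4a5, Col7a1, Col12a1, Col16a1, Col18a1 and Col27a1. Of these, Col12a1 and Col16a1 passed through siScramble alone (means 6.72 and 6.21), with siMnSOD means of 5.84 and 6.03. That last guide was chosen after the values were seen. Brightness depends on the probes as well as on RNA amount, so no level is ranked between genes here, and passing a guide does not show that a gene is transcribed.

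**Figure D1:**
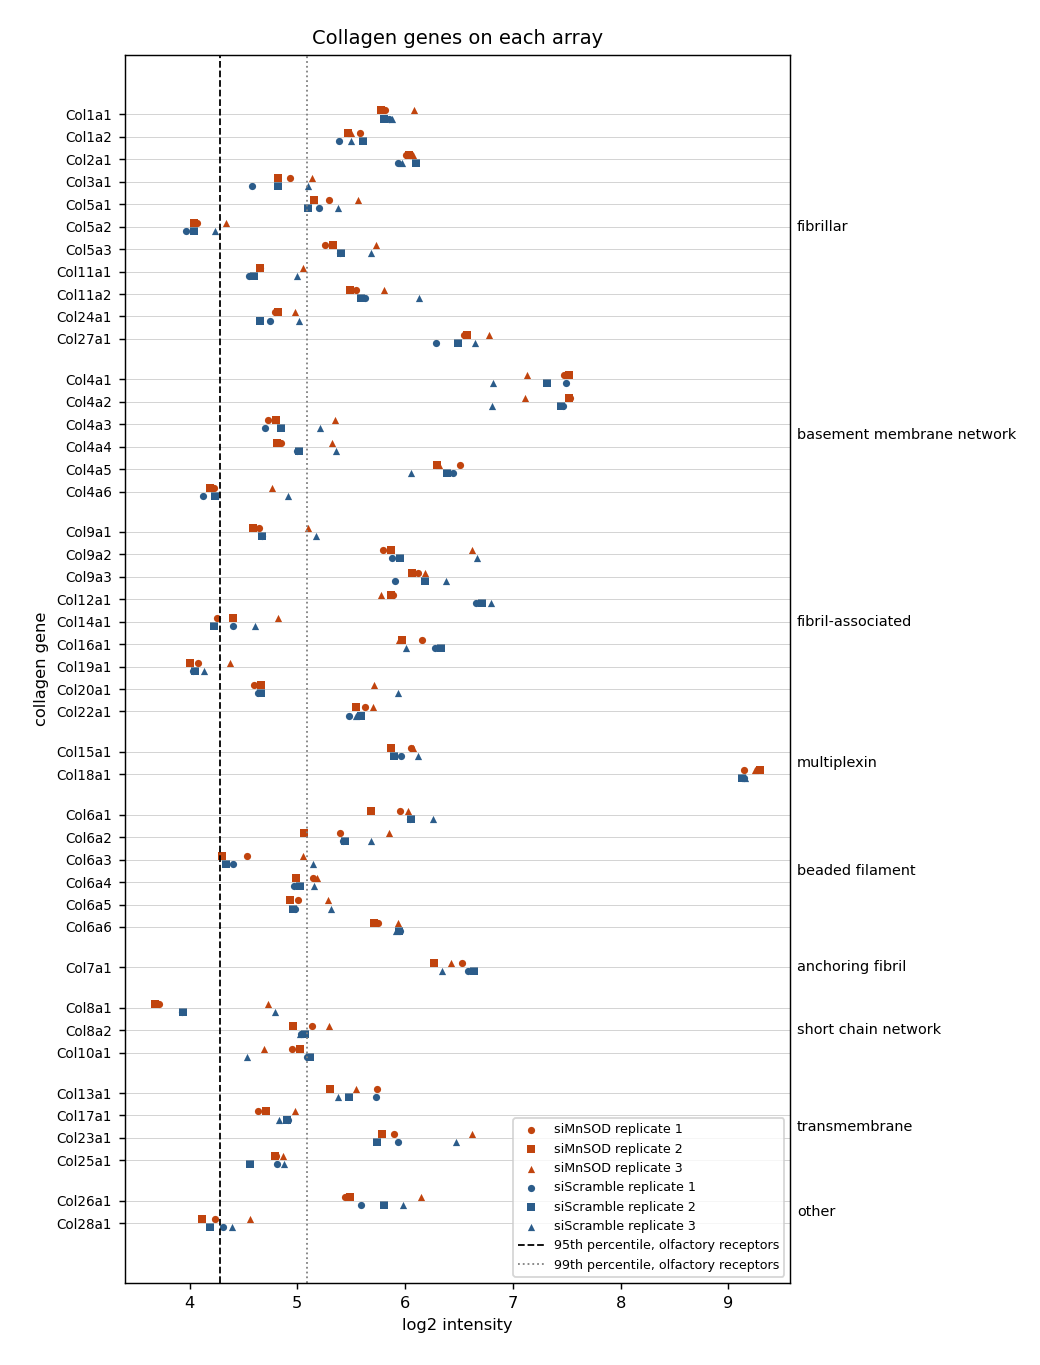
Log2 intensity of the 44 collagen genes on each of the 6 arrays, grouped by class. Red marks are siMnSOD and blue marks siScramble replicates, and the vertical lines are the 95th (4.28) and 99th (5.09) percentiles of olfactory receptor means. Col12a1 is the gene whose red and blue marks are clearly apart, and in many genes the replicate 3 triangles of both colours lie to the right of the other marks.

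Among the 9 fibril-associated collagens, Col12a1 read 59, 58.5 and 54.9 units in siMnSOD replicates 1, 2 and 3, against 101, 105 and 111 units in the siScramble replicates. The groups did not overlap, as held for 9.73% of all genes in the lower direction, and the gap was several times the spread within either group, with means of 57.5 ± 2.28 units in siMnSOD and 106 ± 5.19 units in siScramble (SD, n = 3 each). The log2 fold change was -0.88 (SE 0.10, 95% interval -1.11 to -0.64), and limma gave an adjusted p of 0.0088. With the replicate number as a block it was 0.016, in a fit that called 7.14% of all genes. A fit with array weights called 23.4% of all genes, and Col12a1 was the 1 collagen gene among them. By exact permutation of the arrays (two-sided) p was 0.1, which is as low as groups of 3 can go. Within replicate numbers 1, 2 and 3 the difference was -0.77, -0.84 and -1.02. The adjusted p was 0.0501 without siMnSOD replicate 1, 0.0646 without siMnSOD replicate 2 and 0.0565 without siScramble replicate 2, and the log2 fold change lay between -0.91 and -0.84 whichever single array was left out. The siMnSOD mean of 5.84 on the log2 scale lay under the brightest cartilage collagen (6.14), and the part of background in it was not tested. In these bulk samples fewer cells with the transcript and less transcript per cell cannot be told apart.

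The other 8 fibril-associated genes were not called. Col16a1, which encodes a chain found near small fibrils and at basement membranes, read 71.5, 62.9 and 61.4 units in siMnSOD against 77.6, 80.7 and 64.3 units in siScramble. It was lower within each replicate number, but the groups overlapped (log2 fold change -0.18, SE 0.13). The related genes Col14a1 and Col22a1, whose products bind fibrils or tissue junctions, had 0.08 and 0.09. The type IX chains, which coat cartilage fibrils, had -0.06 for Col9a1, -0.07 for Col9a2 and -0.04 for Col9a3. Col20a1 had -0.09, with a wide 95% interval of -1.12 to 0.94. Col19a1, below background, read 16 to 20.8 units in siMnSOD and 16.4 to 17.6 units in siScramble.

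The 11 fibrillar genes showed no called change, with log2 fold changes from -0.17 to 0.16 and a median of 0.06. The type I chain genes, whose products form the main fibrils of scar tissue, did not pass the test. Col1a1 read 56.2, 54.7 and 67.7 units in siMnSOD and 57.7, 55.9 and 58.7 units in siScramble. Col1a2 read 47.9, 44.2 and 45.1 units in siMnSOD and 41.8, 48.7 and 45.2 units in siScramble. The groups overlapped for both genes, and the 95% intervals were -0.24 to 0.33 for Col1a1 and -0.23 to 0.27 for Col1a2. Both genes lay under the brightest cartilage collagen, and the part of background in their values was not tested. The type III gene Col3a1, a partner of type I in scar tissue, had 0.13 (SE 0.16), with means of 4.96 in siMnSOD and 4.83 in siScramble on the log2 scale, under the stricter guide. The type V chains, which nucleate type I fibrils, had 0.11 for Col5a1 and -0.06 for Col5a3. Col5a2 lay below background, with 16.5 to 20.2 units in siMnSOD and 15.7 to 18.9 units in siScramble. Col27a1, a fibrillar collagen of cartilage and other tissues, read 93.3, 95.5 and 110 units in siMnSOD and 78.3, 89.8 and 101 units in siScramble. It was higher within each replicate number, but the groups overlapped (0.16, SE 0.13, adjusted p = 0.79). Among the cartilage genes Col2a1 had 0.04, Col11a1 0.08 and Col11a2 -0.17, and Col24a1 had 0.06. For 10 of the 11 fibrillar genes the 95% interval lay within 1.5-fold in both directions, the exception being Col11a2 at -0.59 to 0.25.

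**Figure D2:**
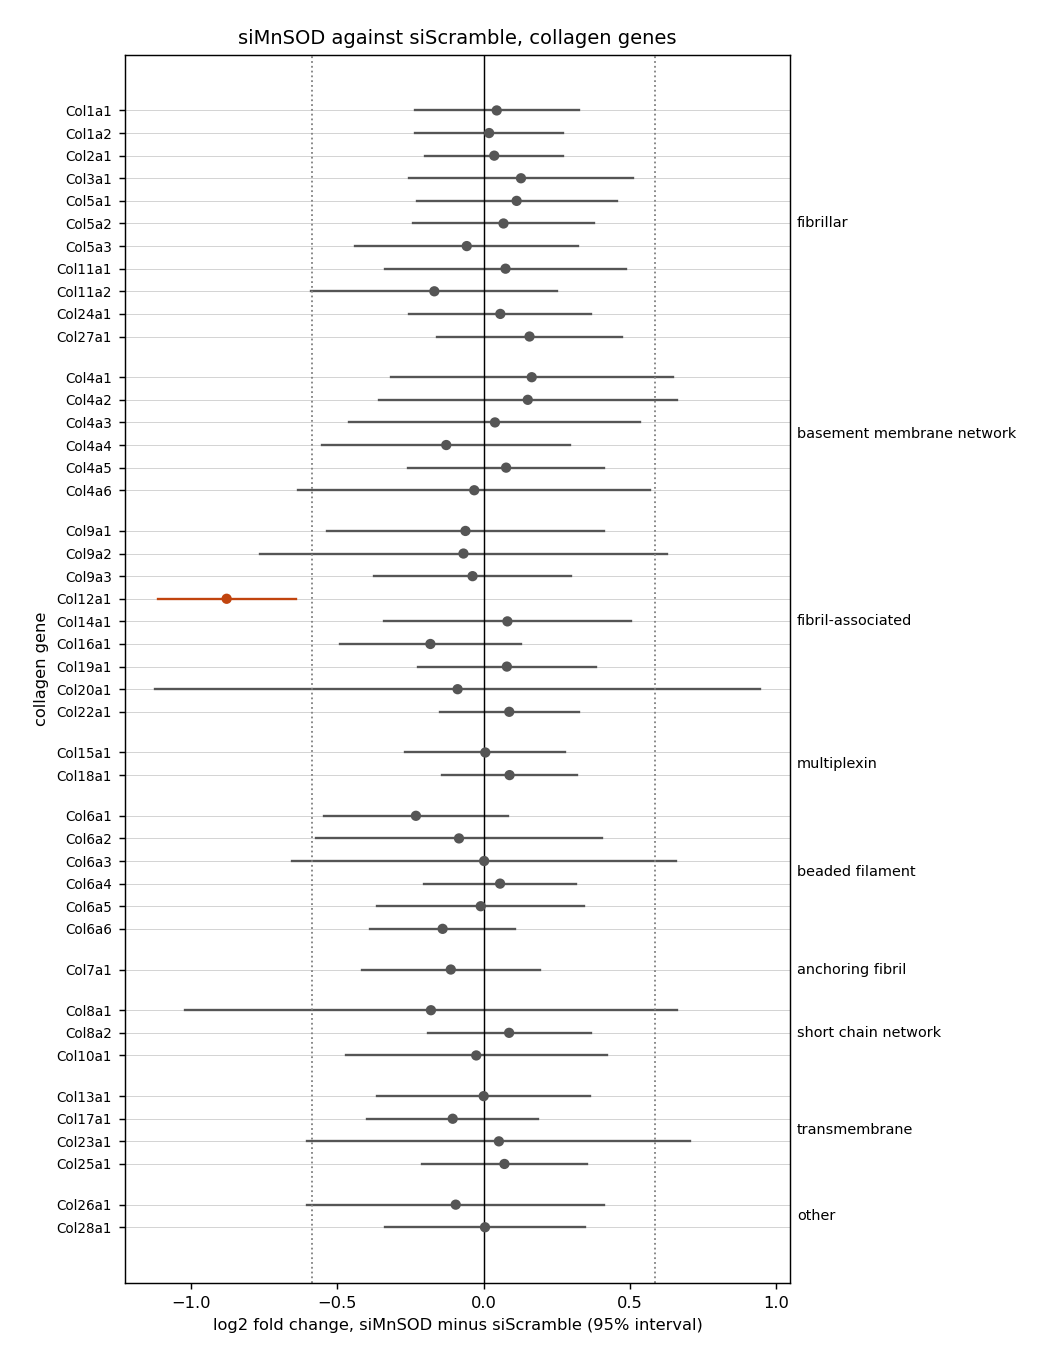
Log2 fold change (siMnSOD minus siScramble) of the 44 collagen genes with 95% intervals from limma, grouped by class. The red point is the gene with an adjusted p under 0.05, Col12a1 at -0.88, and the dotted lines mark 1.5-fold in either direction. Intervals of 33 genes lie between the dotted lines, and Col20a1, Col8a1 and Col9a2 have wide ones.

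None of the 6 type IV genes was called. Type IV chains are encoded by head-to-head gene pairs. The RefSeq windows of Col4a1 and Col4a2, which run from 250 bases before to 50 bases after each start, overlapped by 78 bases on GRCm38.p6, and the annotated genes themselves overlapped at their starts by 22 bases, at chr8:11312805-11312826. These bases are shown because the genes that share them had like differences between groups and like replicate 3 values, as given next. Neither difference was called, and any part of the shared bases in these values was not tested. The strand is the plus strand, on which Col4a2 lies, and the capitals mark the start of Col4a2 (first base) and that of Col4a1 (last base, opposite strand).
Col4a2 to Col4a1: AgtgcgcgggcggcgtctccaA

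Col4a1 read 177, 183 and 140 units in siMnSOD replicates 1, 2 and 3, against 180, 160 and 112 units in siScramble replicates. Col4a2 read 185, 184 and 139 units in siMnSOD replicates, against 176, 174 and 112 units in siScramble replicates. Replicate 3 was the lowest array of its group for both genes, and the groups overlapped. The log2 fold changes were 0.16 (SE 0.20) for Col4a1 and 0.15 (SE 0.21) for Col4a2, with 95% intervals of -0.32 to 0.65 and -0.36 to 0.66. The chains of these genes assemble together in nearly every basement membrane.

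The X-linked pair Col4a5 and Col4a6, which supply the chains of specialised basement membranes such as those of the kidney, were compared with background one by one. Col4a5 read 91.1, 78.4 and 79.7 units in siMnSOD and 87.3, 83.6 and 66.4 units in siScramble, above both olfactory receptor guides on every array. Col4a6 read 18.8, 18.2 and 27.2 units in siMnSOD and 17.5, 18.8 and 30.2 units in siScramble, so that it passed the lenient guide on the replicate 3 arrays and on no other. The groups overlapped for both genes, with log2 fold changes of 0.08 (SE 0.14) for Col4a5 and -0.03 (SE 0.25) for Col4a6. The annotated starts of this pair lie 1343 bases apart, and the part of each window that precedes the first annotated base of a gene is shown for both, 5′ to 3′ on the strand of the gene, from RefSeq on GRCm38.p6. They are chrX:141475169-141475369 (plus strand) for Col4a5, ending 50 bases before the start, and chrX:141474096-141474326 (minus strand) for Col4a6, ending 20 bases before it. Capitals mark matches to the TATA box (letters TATAAA), the CCAAT box (those letters) or the GC box (letters GGGCGG), searched on both strands, and no matches overlapped.
Col4a5: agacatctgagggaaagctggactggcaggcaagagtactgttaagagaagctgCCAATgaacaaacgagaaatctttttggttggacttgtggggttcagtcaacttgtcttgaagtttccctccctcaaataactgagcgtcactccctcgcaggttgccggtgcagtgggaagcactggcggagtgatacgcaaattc
Col4a6: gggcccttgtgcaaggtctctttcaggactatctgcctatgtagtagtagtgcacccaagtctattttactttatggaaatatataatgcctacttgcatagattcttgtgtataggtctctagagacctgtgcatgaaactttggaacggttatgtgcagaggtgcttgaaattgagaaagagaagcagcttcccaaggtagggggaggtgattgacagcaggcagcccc

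The Col4a5 stretch of 201 bases held 1 CCAAT match, which 28.6% of all 32851 promoter windows hold over the same stretch, and no match to TATAAA (9.18% of windows) or GGGCGG (24.8%). The Col4a6 stretch of 231 bases held none of the motifs, which 32.3% (CCAAT), 11.8% (TATAAA) and 30% (GGGCGG) of windows hold. The remaining pair, Col4a3 and Col4a4, whose chains join that of Col4a5 in the kidney filter, had log2 fold changes of 0.04 (SE 0.21) and -0.13 (SE 0.18). Col4a4 was lower within each replicate number, at -0.15, -0.20 and -0.03, with overlapping groups.

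The multiplexins are basement membrane collagens with an interrupted helix. Col18a1, whose product carries endostatin, a fragment that restrains vessel growth, read 566, 628 and 610 units in siMnSOD replicates, against 566, 558 and 571 units in siScramble replicates. siMnSOD replicate 1 lay inside the siScramble range and the other siMnSOD arrays above it, and the log2 fold change of 0.09 (SE 0.10, 95% interval -0.14 to 0.32) was not called. On the log2 scale replicate 3 lay 0.03 above the mean of replicates 1 and 2 in siMnSOD and 0.02 above it in siScramble. Bases before the upstream annotated start are shown because every array lay far above every background guide. Which annotated start gave the signal was not tested. The 250 bases before the upstream of its annotated starts lie at chr10:77166531-77166780 on the minus strand of GRCm38.p6, and the capitals have the same meaning as above.
Col18a1: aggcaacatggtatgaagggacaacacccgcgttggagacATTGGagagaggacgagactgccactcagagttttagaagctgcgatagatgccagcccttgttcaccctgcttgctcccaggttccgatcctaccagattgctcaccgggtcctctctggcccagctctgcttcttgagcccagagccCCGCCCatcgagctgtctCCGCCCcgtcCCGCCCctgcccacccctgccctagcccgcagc

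That sequence, with a GC content of 62%, held 3 matches to GGGCGG (32.7% of windows hold at least 1) and 1 to CCAAT (33.8%), both on the opposite strand, and none to TATAAA (12.4%). Col15a1, the other multiplexin, read 66.5, 58.4 and 67.5 units in siMnSOD and 62.3, 59.8 and 69.5 units in siScramble. Its groups overlapped, with a log2 fold change of 0.01 (SE 0.12).

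The type VI genes encode the beaded filaments that surround many cells. Col6a1, which supplies a chain needed in every type VI filament, read 62.1, 51.3 and 65 units in siMnSOD and 66, 66.4 and 76.4 units in siScramble. Its groups did not overlap, but siMnSOD replicate 3 and siScramble replicate 1 were only about 1 unit apart, and the log2 fold change of -0.23 (SE 0.13, 95% interval -0.54 to 0.08) was not called (adjusted p = 0.52 in limma, and 0.24 in the paired fit). Col12a1 and Col6a1 were the 2 collagen genes whose groups did not overlap (4.55%), both lower. Over all genes the share was 20.9% in either direction, 9.73% lower and 11.1% higher. The partner chains Col6a2 and Col6a3 had log2 fold changes of -0.08 (SE 0.21) and 0.00 (SE 0.28). Col6a2 read 42.1, 33.5 and 57.6 units in siMnSOD and 43, 43.6 and 51.6 units in siScramble. The alternative chains Col6a4, Col6a5 and Col6a6, neighbours on chromosome 9, had 0.06, -0.01 and -0.14. The probe sets not used for Col6a5 and Col6a6 were dimmer, with mean log2 values of 3.70 and 3.91 over all arrays.

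The remaining classes held no called gene. Col7a1, which forms the anchoring fibrils of epithelia, read 92.4, 77.2 and 85.8 units in siMnSOD and 95.9, 99.5 and 80.9 units in siScramble (-0.11, SE 0.13). Among the network-forming short chain genes, Col8a2 had 0.09 and Col10a1, a gene of cartilage about to turn to bone, had -0.02. Col8a1, below background in both group means, read 13.1, 12.8 and 26.5 units in siMnSOD and 15.2, 15.3 and 27.8 units in siScramble, so that its replicate 3 arrays alone cleared the guide. The transmembrane collagens, which sit in the cell surface, had 0.00 for Col13a1, -0.11 for the hemidesmosome gene Col17a1, 0.05 for Col23a1 and 0.07 for Col25a1. Col26a1 had -0.09 (SE 0.21) and Col28a1 0.01 (SE 0.14).

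Over all 44 genes the median log2 fold change was 0.01, equal to the 0.01 over all 19938 genes to this precision, with 25 values above and 19 below 0. The range was -0.88 to 0.16. The 95% interval lay within 1.5-fold in both directions for 33 collagen genes (75%), as it did for 60.5% of all genes, and within 2-fold for 41. The 3 genes whose intervals reached beyond 2-fold were Col12a1, Col8a1 and Col20a1. The interval of Col12a1 was narrow (-1.11 to -0.64) and passed that bound through the size of the change. In 14 genes (31.8%) the difference had the same sign within all 3 replicate numbers, against 42.4% of all genes.

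**Figure D3:**
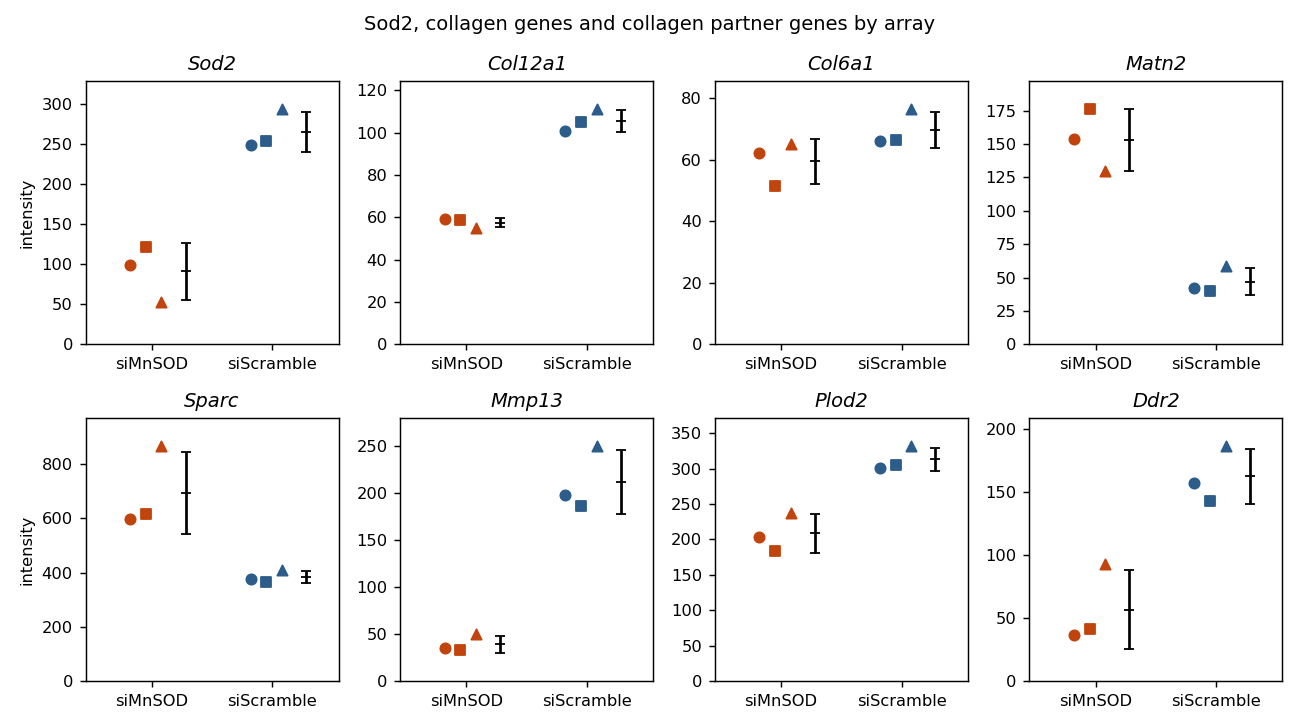
Intensity (linear axis from 0) on each array for Sod2, Col12a1, Col6a1 and 5 genes for collagen partners, siMnSOD in red and siScramble in blue, with circles, squares and triangles for replicates 1, 2 and 3 and black bars for the mean and SD (n = 3). The groups are apart in all 8 genes, narrowly in Col6a1, while adjusted p-values under 0.05 were reached by Sod2, Col12a1, Matn2, Sparc and Mmp13.

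Replicate 3 lay apart from replicates 1 and 2 for most of the family. In 34 of 44 genes (77.3%) replicate 3 lay farther from the mean of replicates 1 and 2, in both groups, than the groups lay from each other, against 52.3% of all genes. A single array set against a mean of 2 varies more than a difference between means of 3, so this measure leans towards replicate 3. Replicate 3 was above the mean of replicates 1 and 2 in both groups for 31 collagen genes (70.5%, against 47.2% of all genes), below in both for 5, and on opposite sides in 8. The shares over all genes were not matched for intensity, so neither excess is shown to be particular to collagens. Col20a1 read 24.3, 25.3 and 52.3 units in siMnSOD replicates 1, 2 and 3, and 24.9, 25.4 and 61 units in siScramble replicates, so that replicate 3 was the bright array in each group. Replicate 3 was higher by 1.03 and 0.86 for Col8a1, by 0.79 and 0.75 for Col9a2 and by 0.78 and 0.63 for Col23a1, on the log2 scale in siMnSOD and siScramble. The 5 genes lower in both groups were Col4a1, Col4a2, Col4a5, Col10a1 and Col16a1. For Col4a1 replicate 3 was lower by 0.37 in siMnSOD and 0.59 in siScramble. Col12a1 differed from this pattern, with replicate 3 deviating by -0.10 in siMnSOD and 0.11 in siScramble. The part of replicate 3 in the other genes' wide intervals was not tested. The labels do not say what a replicate number marks.

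**Figure D4:**
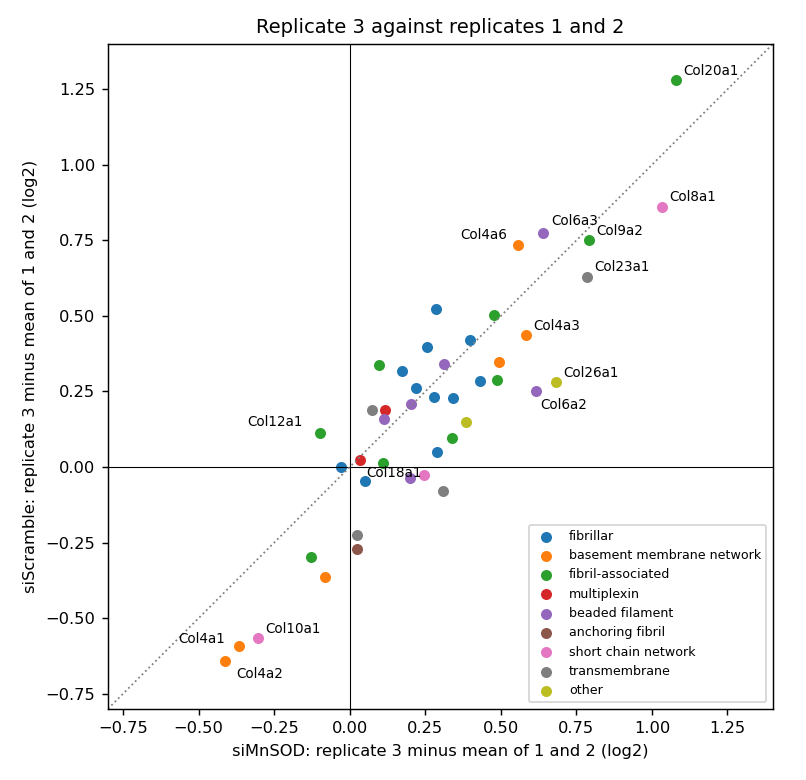
Log2 intensity of replicate 3 minus the mean of replicates 1 and 2 in siMnSOD (horizontal) and in siScramble (vertical) for each collagen gene, coloured by class, with the dotted line marking equality. Points lie mostly in the upper right, where Col20a1 reaches 1.08 and 1.28, Col4a1, Col4a2 and Col10a1 lie in the lower left, and Col12a1 lies near the origin.

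Genes for collagen partners were examined as 6 lists. Of 20 measured genes for fibril and basement membrane partners 2 rose and none fell (median log2 fold change 0.07), where 2.17% of all genes were called higher and 1.58% lower. Matn2, which encodes a filament-forming adaptor of the matrix, read 154, 176 and 130 units in siMnSOD and 42.2, 40.1 and 58.5 units in siScramble. The groups were far apart, with a log2 fold change of 1.72 (SE 0.19, adjusted p = 0.0081), and the adjusted p was 0.06 without siMnSOD replicate 2. Sparc, a collagen-binding glycoprotein gene, read 598, 617 and 867 units in siMnSOD and 376, 365 and 408 units in siScramble. Its log2 fold change was 0.84 (SE 0.16, adjusted p = 0.044), and the call was lost when any 1 of siMnSOD replicates 1 and 2 and siScramble replicates 1 and 2 was left out (highest adjusted p = 0.17).

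Of 11 measured genes for collagen-degrading enzymes 1 fell and none rose (median 0.04), where 1.58% of all genes were called lower. In lists this short a single call sets the share. Mmp13, the gene of an interstitial collagenase that cuts intact fibrils, read 34.7, 32.5 and 49.7 units in siMnSOD and 198, 186 and 250 units in siScramble. The siMnSOD arrays held 18.2% of the siScramble level, with a log2 fold change of -2.46 (SE 0.20, adjusted p = 0.0036, and at most 0.035 with any single array left out).

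Of 9 measured collagen receptor genes none was called (median -0.15). With 3.75% of all genes called, a list of this size could hold none without standing apart. Ddr2, a receptor kinase for fibrillar collagen, read 36.2, 41.3 and 92.4 units in siMnSOD and 157, 143 and 186 units in siScramble. The groups did not overlap, and the log2 fold change of -1.64 (SE 0.35) was not called in limma (adjusted p = 0.054, and 0.025 in the paired fit). Without siMnSOD replicate 3 its log2 fold change was -2.06 and its adjusted p 0.011. The integrin gene Itga2 had -0.75 (SE 0.23, adjusted p = 0.14, and 0.0046 without siScramble replicate 3), and Lair1, an inhibitory receptor gene below background, read 9.34 to 12 units in siMnSOD and 11.9 to 13.8 units in siScramble.

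The machinery that makes and exports procollagen held no called gene in 3 lists, where 3.75% of all genes were called. Among 18 genes for modification and folding (median 0.06), the lysyl hydroxylase gene Plod2 read 203, 184 and 238 units in siMnSOD and 301, 306 and 332 units in siScramble. The groups did not overlap, with a log2 fold change of -0.59 (SE 0.13, adjusted p = 0.057, and 0.032 with the block or 0.044 without siMnSOD replicate 3). P4hb, a subunit of prolyl hydroxylase, and Colgalt1, which adds galactose to hydroxylysine, had 0.39 (SE 0.11, adjusted p = 0.11) and 0.41 (SE 0.12, adjusted p = 0.12). Among 12 genes for secretion (median -0.10), Tango2 had 0.59 (SE 0.15, adjusted p = 0.092, or 0.023 with the block). Tango2 was on the list but is not an established procollagen export factor. The coat protein gene Sec23a had -0.26 and the cargo receptor gene Mia3 -0.20. Among 14 genes for propeptide removal and cross-linking (median 0.05), the enhancer genes of procollagen cleavage Pcolce2 and Pcolce had 0.63 (adjusted p = 0.09) and 0.35, and the cross-linking enzyme gene Lox, below background, read 9.69 to 12.1 units in siMnSOD and 9.06 to 9.99 units in siScramble.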

How the data were processed

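The authors deposited normalized intensities on a linear scale for every probe set. RMA is named in the submitters' processing notes, but per the labels MAS5 scaled the chips, so which of them made the values is unsettled. Here log2 intensities were taken from the deposited values. Of 35557 probe sets, 21789 had 1 symbol in the platform annotation, 1621 several and 12147 none. Symbols were updated through Entrez identifiers (21698 matched) in a RefSeq table of GRCm38.p6, used for names, neighbours and promoter sequences (35 collagen genes had an entry). The brightest probe set stood for a gene, which left 21559 tested rows including those with several symbols. The model was limma 3.58.1 under R 4.3.3, with group as its only term, Benjamini-Hochberg adjustment, a threshold of 0.05 and no filter on low values. Fold changes are siMnSOD minus siScramble. With 3 arrays a group, precision is limited. The fit was tested on simulated data with independent noise. Those data held no shift of replicate 3, so they could not show how such a shift affects the calls.

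The members, gene lists and tests were chosen with earlier results of these data known. All collagen genes above background were named, and of each partner list the called genes, or else the 3 of smallest p. Hnf4a, Sox9, Krt7 and Krt19 were named after their values were seen. Residuals of samples sharing a number had correlations of 0.30, 0.29 and 0.56 for numbers 1, 2 and 3 over tested rows. Since each passed 0.1, the number was tried as a blocking term in an alternative fit (the paired fit), and the main fit held no pairing. Replicates 1 and 2 matched each other across groups better (0.47 and 0.41), so whether samples sharing a number are pairs is not settled.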

Additional observations from a re-analysis of the deposited data

How the results depend on the processing

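Col12a1 was lower in siMnSOD in all 15 alternative fits, with values of -0.91 to -0.73, and was called in 12 of them. It was not without siMnSOD replicate 1 (-0.90), without siMnSOD replicate 2 (-0.89) or without siScramble replicate 2 (-0.88). Leaving out single arrays gave 0 to 1 lower collagen genes and log2 fold changes of Col12a1 of -0.91 to -0.84 (-0.81 without both replicate 3 arrays). No other collagen gene was called in any of the 15 fits, the lowest adjusted p among the 40 above background being 0.073, and with the replicate block the lowest was 0.24. The replicate block left the calls of Col12a1, Sod2, Matn2, Sparc and Mmp13 unchanged. The collagen median ranged from -0.075 to 0.078 when single arrays were left out. The number of collagen genes above background was 27 by the 99th percentile, 38 when all 3 arrays of a group had to pass, 44 by vomeronasal and taste receptors and 8 by the cartilage guide. Sod2 had -1.61 (adjusted p = 0.074) after arrays were centred on their medians, -1.63 (adjusted p = 0.063) when all probe sets were tested, and -1.88 to -1.27 when single arrays were left out. Over all genes, 284 were higher and 205 lower after centring, 801 and 623 with the replicate block, 278 and 154 when all probe sets were tested, and 2486 and 2188 with array weights, which called 23.4% of genes. Leaving out single arrays gave 52 to 1119 higher and 25 to 1119 lower genes, both ends being siMnSOD replicate 2 and siScramble replicate 3, and leaving out both replicate 3 arrays gave 2343 and 1932. Among the partner genes 2 were higher and 1 lower, against 11 and 12 with array weights, 1 higher when all probe sets were tested, 3 lower after centring, 3 higher and 3 lower with the replicate block, and 2 lower when only rows above background were tested or 16 was added before the log. Leaving out single arrays gave 0 to 4 higher and 1 to 4 lower partner genes, and leaving out both replicate 3 arrays gave 12 and 12. The cause of these changes was not tested. Low signal limits what could be seen in the collagen genes that did not pass the stricter guide. The same holds for those that passed it but not the cartilage guide, both type I chains among them.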

Other observations

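Proteins outside the family that carry a collagen-like domain, such as collectins, complement C1q relatives and scavenger receptors, were also examined, as a list chosen after the data were seen. Of 34 measured genes 16 lay above background, against 65.8% of all genes, and 18 below it in both groups. None was called, against 3.75% of all genes, with a median log2 fold change of 0.00. The member with the smallest p was C1qtnf12, a C1q and tumour necrosis factor relative, at -0.35 (SE 0.12, adjusted p = 0.19 in limma). Its mean intensity was 31.7 units in siMnSOD and 40.4 units in siScramble.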
